A study of Rattus norvegicus with 3 samples.

Results

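Potassium channels, the pores through which neurons let potassium out to set their resting potential and to end action potentials, were examined in 3 single rat hippocampal somata through every gene whose symbol begins with Kcn. A probe set, the group of short probes that reads 1 transcript on the array, was taken where the platform annotation gave it exactly 1 such symbol. This gave 126 of the 31099 probe sets and 75 of the 14218 genes measured. By symbol they fell into 31 voltage-gated genes (49 probe sets), 15 inward rectifiers (26), 11 two-pore genes (16), 5 calcium-activated genes (9) and 13 auxiliary subunits (26). By gene number all 75 matched a RefSeq entry of the rat assembly GRCr8 with the same symbol. Each array carried amplified RNA of 1 cell body, cut by glass pipette from a neuron that the labels call pyramidal, in an untreated dispersed culture of Sprague-Dawley rat embryos (E19) kept for 14 days. The somata form 1 group of 3 biological replicates, called cell 1, cell 2 and cell 3, for which the labels name neither an animal nor a dish. No control group belongs to the series, so every value describes these 3 cells and the number of arrays limits its precision. No p-value is given, because the smallest two-sided p of an exact sign permutation over 3 cells is 0.25.

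Voltage-gated channels open on depolarisation and repolarise the membrane, whereas inward rectifiers and two-pore channels pass current near the resting potential. Calcium-activated channels open when calcium enters during firing, and auxiliary subunits change the gating, traffic or place of the pore-forming proteins. In hippocampal pyramidal neurons, dendritic A-type current through Kv4 channels and their KChIP partners, M-current through Kv7 channels and the slow afterhyperpolarisation are well known examples of potassium conductances that hold back firing.

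The value of a gene was the median log2 value of its probe sets, and its percentile was its rank among the 14218 genes of the same array. A percentile contains the brightness of the probes themselves, so it gives a position on the array and does not rank different transcripts by abundance. Background on each array was the 95th percentile of the log2 values of 152 genes of other organs and sensory receptors that hippocampal neurons are not known to use. This limit, which a gene had to pass to be called above background, lay at 9.77, 9.63 and 9.36 log2 in cells 1, 2 and 3.

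The neuronal label was borne out in part by markers. General neuronal genes had median percentiles of 80.9, 84.8 and 91.5 in cells 1, 2 and 3 (20 genes) and pyramidal markers 61.6, 73.0 and 87.2 (16 genes), with Neurod2 and Nrgn above background in every cell. The pyramidal markers Slc17a7 (55.3, 51.2 and 51.2) and Camk2a (26.5, 19.6 and 26.2) were not high. Of the 20 general neuronal genes 4 were above background in every cell. Another 2, Syt1 (31.9, 24.7 and 7.09) and Uchl1 (10.6, 11.7 and 23.9), were below the array median in every cell, and Map2 lay at 28.7, 17.7 and 67.5. Medians of interneuron, astrocyte, oligodendrocyte, microglial and vascular markers ranged from 29.1 to 70.8 over the cells. In cell 2 the interneuron median (70.1) was close to the pyramidal one. There 2 of 11 interneuron markers, Vip and Dlx1, were above background, against 4 of 16 pyramidal markers. In cells 1 and 3 the interneuron marker Calb2 (98.3, 91.0 and 99.1 in cells 1, 2 and 3) was above background. It was the only 1 of the 11 in each, against 3 and 7 pyramidal markers. The vascular marker Vwf was above background in every cell, the only 1 of 14 vascular markers that was. In cell 1 the microglial (70.8) and vascular (63.1) medians were above the pyramidal one, and 4 of 12 microglial markers were above background against 3 of 16 pyramidal markers. Cell 1 stood apart from the others: across all genes its correlation with cells 2 and 3 was 0.473 and 0.437, against 0.676 between cells 2 and 3. Results that rest on cell 1 are given with and without it.

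Few potassium channel genes stood clear of background in a soma. Above background were 6, 3 and 5 of the 75 genes in cells 1, 2 and 3, or 8%, 4% and 6.67%, where 6.8%, 8.04% and 11.4% of all genes were. The genes Kcnh6, Kcnip3 and Kcnc4 were above it in all 3 cells, which is 4% of the channel genes against 2.2% of all genes. Another 5 genes, Kcnq1, Kcnk13 and Kcnh7 in cell 1 and Kcnh3 and Kcnk12 in cell 3, passed in a single cell. In total 8 genes (10.7%, against 17.7% of all genes) passed in any cell and 67 in none. The top 5% of an array was reached in any cell by Kcnh6, Kcnip3, Kcnc4, Kcnk13 and Kcnh7, or 6.67% of the channel genes against 9.91% of all genes. As a whole the 75 genes sat in the middle of the arrays, with median percentiles of 40.1, 49.7 and 53.9 in cells 1, 2 and 3 (47.9 ± 7.04, mean ± SD, n = 3 cells), and 19 genes lay above the array median in every cell and 18 below it in every cell, much as for all genes (3748 and 3553 of 14218). The background genes had medians of 33.7, 44.3 and 36.4, and 8 of the 152 were above background in each cell by construction. Of the same 152 genes, 16 passed in any cell and 3 in all 3 cells, so a pass alone does not establish expression.

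The start regions of the 3 genes above background in all cells are shown together with that of Kcne1, the lowest channel gene by median percentile, so that both ends of the range can be set side by side. Sequences are from RefSeq on GRCr8, run from 250 bases before to 50 bases after the annotated gene start, read 5′ to 3′ on the strand of the gene, and have every CG dinucleotide in capitals. The windows are chr10:91449401-91449700 on the plus strand for Kcnh6, chr3:135195361-135195660 on the minus strand for Kcnip3, chr2:197788384-197788683 on the minus strand for Kcnc4 and chr11:45076984-45077283 on the minus strand for Kcne1.
Kcnh6: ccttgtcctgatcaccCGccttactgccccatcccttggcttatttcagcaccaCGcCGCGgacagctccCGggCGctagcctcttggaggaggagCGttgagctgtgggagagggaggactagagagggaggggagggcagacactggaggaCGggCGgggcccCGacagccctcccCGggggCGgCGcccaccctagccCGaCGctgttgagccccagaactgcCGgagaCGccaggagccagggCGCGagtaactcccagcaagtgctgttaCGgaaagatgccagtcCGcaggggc
Kcnip3: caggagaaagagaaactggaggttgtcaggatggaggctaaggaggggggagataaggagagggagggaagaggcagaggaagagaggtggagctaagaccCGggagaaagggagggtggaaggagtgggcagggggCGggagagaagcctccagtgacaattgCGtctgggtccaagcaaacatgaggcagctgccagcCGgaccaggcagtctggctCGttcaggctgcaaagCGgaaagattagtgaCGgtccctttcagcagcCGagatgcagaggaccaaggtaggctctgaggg
Kcnc4: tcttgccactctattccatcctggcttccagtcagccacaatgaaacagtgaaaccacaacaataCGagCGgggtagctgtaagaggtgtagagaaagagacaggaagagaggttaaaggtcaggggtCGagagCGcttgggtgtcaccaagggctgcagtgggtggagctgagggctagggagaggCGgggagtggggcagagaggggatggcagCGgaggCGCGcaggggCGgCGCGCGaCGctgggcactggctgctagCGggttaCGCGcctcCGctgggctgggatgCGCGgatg
Kcne1: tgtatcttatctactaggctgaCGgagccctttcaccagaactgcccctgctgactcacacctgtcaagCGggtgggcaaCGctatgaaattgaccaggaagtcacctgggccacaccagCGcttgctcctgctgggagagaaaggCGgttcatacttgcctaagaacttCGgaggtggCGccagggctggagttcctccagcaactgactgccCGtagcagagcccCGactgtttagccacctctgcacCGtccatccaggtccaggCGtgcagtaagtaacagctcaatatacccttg

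The letters CG occurred 21 times in the window of Kcnh6, 19 times in that of Kcnc4, 8 times in that of Kcnip3 and 11 times in that of Kcne1. Kcnip3, near the top of every array, thus had fewer than Kcne1, near the bottom, and Kcnh5, another gene at the low end (2.45, 4.66 and 16.4 in cells 1, 2 and 3), had 26. Over the 52 channel genes with a window the number ranged from 1 to 48, with a median of 16.5 against 19 over 11734 genes. Its Spearman correlation with the median percentile was 0.12 across the channel genes and 0.10 across all genes, which is a description across genes and not across samples. The count of CG therefore did not separate channel genes that were high on the arrays from those that were low.

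Voltage-gated genes held the highest positions of the pore-forming classes. The family of ether-à-go-go channels (EAG, ERG and ELK, symbols Kcnh) had medians over its 8 genes of 83.7, 62.2 and 75.0 in cells 1, 2 and 3. It led the voltage-gated families in cell 1, while the Kv2 gene measured was higher in cell 2 (71.9) and the Kv7 genes in cell 3 (75.6). Kcnh6, the ERG2 channel, read 10.29, 11.14 and 11.36 log2, at percentiles of 95.7, 98.4 and 98.5. It was the highest channel gene by median percentile and differed little in position between the cells. The ELK channels Kcnh8 (percentiles of 89.1, 70.4 and 87.2), Kcnh3 (78.3, 83.1 and 90.7) and Kcnh4 (33.7, 52.9 and 69.5) followed at different heights. Kcnh3, known as a channel of forebrain neurons, was above background in cell 3 alone, at 9.61 log2. The ERG channels Kcnh7 (99.0, 54.0 and 34.7) and Kcnh2 (92.4, 32.2 and 48.9) were both far higher in cell 1 than in the other cells. Of the EAG channels, Kcnh1 lay at 40.1, 85.0 and 80.5, high in cells 2 and 3, and Kcnh5 was among the lowest genes of its class. Without cell 1, Kcnh7 and Kcnh2 lay between 32.2 and 54.0, while Kcnh6 stayed at 98.4 and 98.5.

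Kcnc4 encodes Kv3.4, a fast inactivating member of the Kv3 channels. Its log2 value was 10.20, 10.20 and 10.11, at percentiles of 95.3, 95.2 and 93.5 in cells 1, 2 and 3, with the smallest SD of the 3 genes above background in every cell. This value averages a bright probe set and a middling one, whose own SDs were larger (0.097 and 0.200 log2). The small SD is therefore no measure of steadiness. The other Kv3 genes measured did not share the position of Kcnc4: Kcnc1, typical of fast spiking cells, lay at 37.7, 48.2 and 17.6 and Kcnc2 at 54.5, 17.2 and 11.3. Kv7 genes, which carry M-current, had medians of 65.2, 60.6 and 75.6 over 3 genes. Among them Kcnq3 (65.2, 60.6 and 76.9) and Kcnq5 (64.5, 44.6 and 64.0), both neuronal, lay above the array median in every cell with the exception of Kcnq5 in cell 2. Kcnq1, known from heart and epithelia, read 10.09, 9.21 and 8.32 log2 at 94.8, 88.4 and 75.6, above Kcnq3 in cells 1 and 2 and not in cell 3.

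Kv1 genes, channels of axons and of the axon's start, had medians of 48.0, 52.9 and 57.9 over 6 genes. Kcna2 (59.3, 88.3 and 80.3 in cells 1, 2 and 3) and Kcna1 (69.1, 68.6 and 81.4) were above the array median in every cell, whereas Kcna4 (14.3, 78.0 and 45.8), Kcna5 (83.5, 5.76 and 20.3) and Kcna3 (1.54, 18.8 and 54.7) changed position widely between cells. Kv4 genes, which carry A-type current in dendrites, had medians of 54.7, 48.2 and 55.0 over 3 genes. Kcnd2 lay at 80.8, 60.2 and 55.0, Kcnd1 at 54.7, 48.2 and 72.7 and Kcnd3 at 38.5, 44.3 and 32.7. The value of Kcnd2 joins 2 probe sets that went opposite ways. In cells 1, 2 and 3 one read 9.86, 6.91 and 6.29 log2 and the other 7.24, 8.30 and 8.46. Kcnb2, the Kv2 gene measured, was at 56.5, 71.9 and 46.3. The 7 electrically silent genes, whose proteins form channels only together with Kv2 subunits, had medians of 43.1, 53.7 and 50.6. Kcns1 (58.6, 86.1 and 62.8) was the highest of them, and Kcnv1 (58.4, 6.36 and 3.20) the lowest, with its highest value in cell 1.

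**Figure D1:**
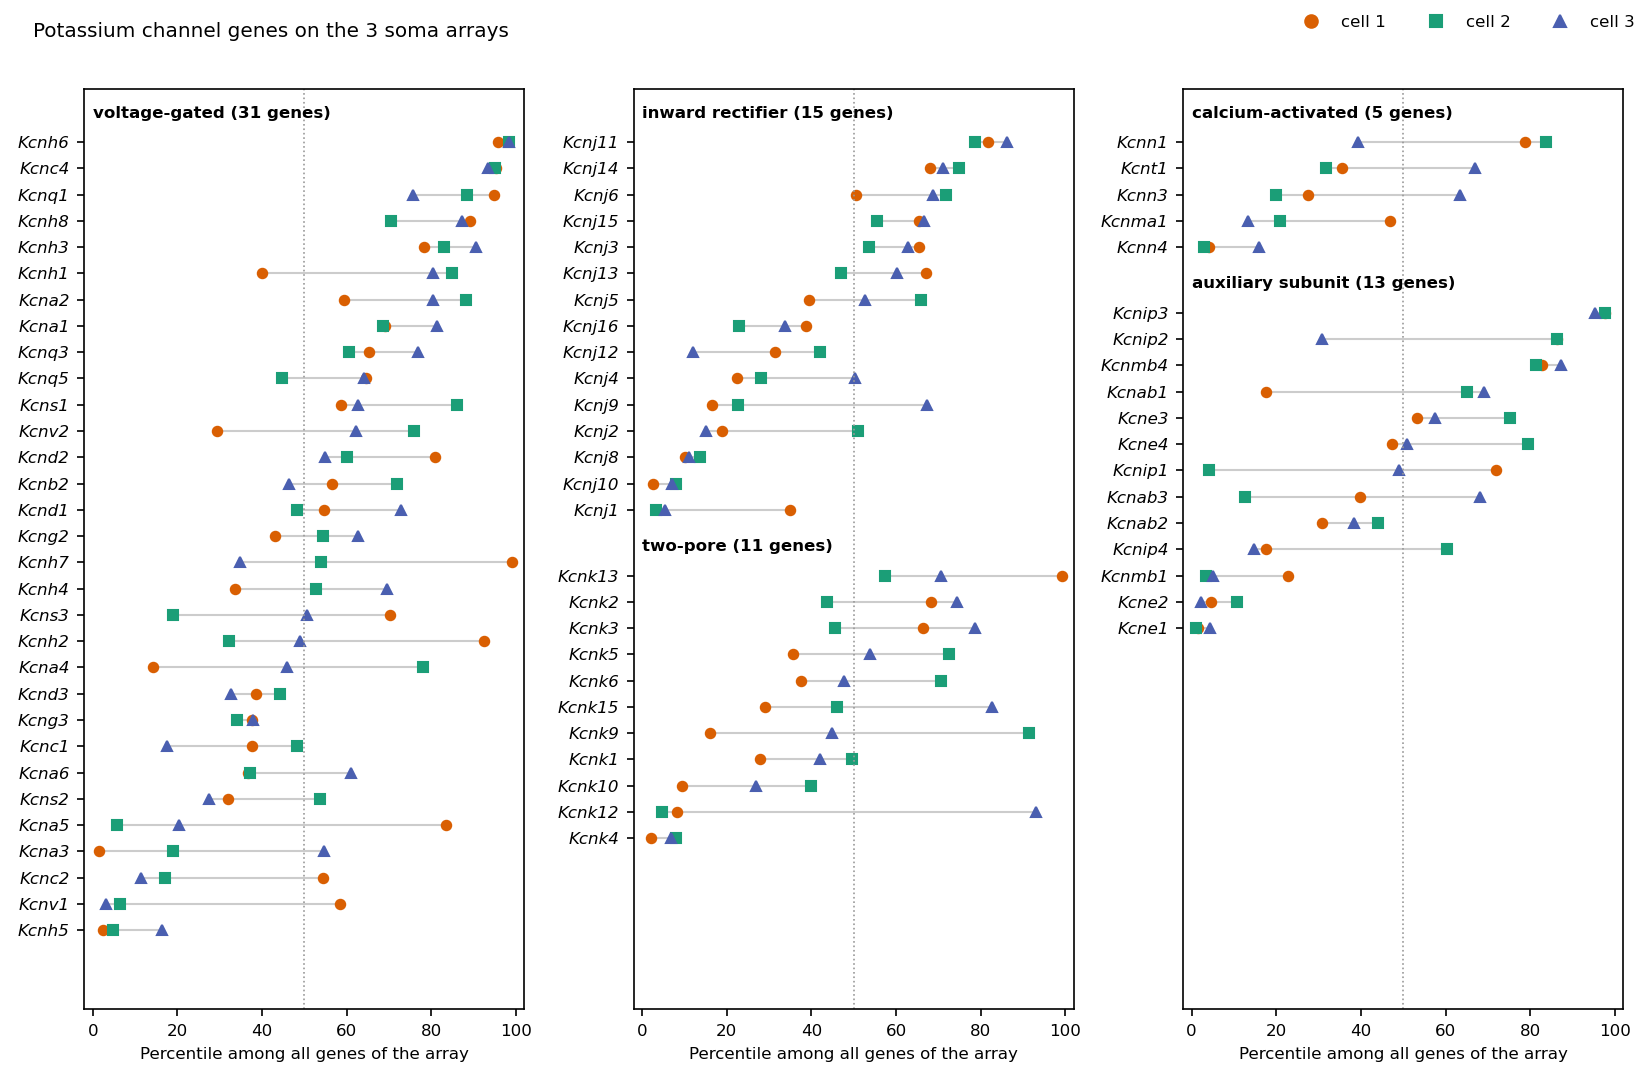
Percentile among all genes of the array (horizontal axis) of the 75 potassium channel genes, grouped by class and ordered by median, in cell 1 (circles), cell 2 (squares) and cell 3 (triangles); grey lines join the cells and the dotted line marks the 50th percentile. Kcnh6, Kcnip3 and Kcnc4 lie above 93 in every cell, Kcne1 below 5, and long grey lines such as that of Kcnk12 show genes whose position changed from cell to cell.

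By the median of its probe sets, none of the 15 inward rectifier genes was above background in any cell, although single probe sets of Kcnj11 and Kcnj6 were. Of all genes 17.7% were above it in any cell, so few would be looked for among 15. Kcnj11, the pore of ATP-sensitive channels that open when energy is short, was the highest, at 8.61, 8.46 and 9.08 log2 and percentiles of 81.6, 78.7 and 86.3 in cells 1, 2 and 3. Kcnj8, the other pore of this kind and typical of vascular muscle, lay at 10.1, 13.8 and 11.1, so the pair stood far apart on the arrays in every cell. Kcnj14, a Kir2 channel, was at 68.0, 74.8 and 71.1, above the other Kir2 genes Kcnj2 (18.8, 51.0 and 15.2), Kcnj4 (22.4, 28.1 and 50.3) and Kcnj12 (31.4, 41.9 and 12.1). The G protein-gated GIRK genes, through which transmitters hyperpolarise neurons, had medians of 45.0, 59.8 and 65.1 over 4 genes. Within this family Kcnj6 (50.6, 71.8 and 68.7) and Kcnj3 (65.5, 53.7 and 62.8) stayed above the middle in every cell, and Kcnj9 (16.6, 22.7 and 67.4) did so in cell 3 alone. The class ended with Kcnj10 (2.45, 7.95 and 7.09), the main inward rectifier of astrocytes, and the renal channel Kcnj1 (34.9, 3.31 and 5.45), both below the array median in every cell.

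Two-pore genes, which carry leak current, had some of the widest changes from cell to cell. Of all 14218 genes 3748 lay above the array median in every cell, and of the 11 two-pore genes 1 did. That gene was Kcnk13, the THIK-1 channel known from microglia, which read 11.62, 7.49 and 8.04 log2 in cells 1, 2 and 3, at percentiles of 99.3, 57.4 and 70.6. It was the highest channel gene of cell 1, and lay lower in both other cells. Microglial markers had medians of 70.8, 51.6 and 31.4 over 12 genes in the same cells, spanning 1.65 to 99.3 in cell 1, 7.45 to 92.5 in cell 2 and 2.94 to 75.8 in cell 3. Csf1r, Itgam, Tyrobp and C1qc of these 12 were above background in cell 1, 1 marker was in cell 2 and 0 in cell 3, while Aif1 lay at 1.65 and Cx3cr1 at 17.2 in cell 1. Other channel genes linked to microglia, chosen after their values were seen, went both ways in cell 1, with Kcna5 at 83.5 and Kcna3 at 1.54, Kcnn4 at 4.16 and Kcnj2 at 18.8. The part of microglial RNA in the value of Kcnk13 was not tested.

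The related THIK-2 gene Kcnk12 behaved in the opposite way. It read 5.41, 4.98 and 10.01 log2 in cells 1, 2 and 3, near the floor of 2 arrays and above background on the third, at percentiles of 8.19, 4.66 and 93.0. The TASK genes, acid-sensitive leak channels, also had their top member in different cells: Kcnk3 lay at 66.4, 45.6 and 78.6, Kcnk9 at 15.9, 91.4 and 44.8 and Kcnk15 at 29.1, 46.0 and 82.6. TREK and TRAAK channels, opened by stretch and lipids, were low except Kcnk2 (68.3, 43.7 and 74.4), with Kcnk10 at 9.50, 39.9 and 27.0 and Kcnk4 at 2.05, 7.95 and 6.70. Kcnk1 (27.8, 49.7 and 42.0) and Kcnk6 (37.6, 70.6 and 47.6), of the TWIK kind, and Kcnk5 (35.6, 72.5 and 53.9) each had their highest value in cell 2.

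The calcium-activated class was small and low. By the median of its probe sets, none of its 5 genes was above background in any cell or above the array median in all cells. However, 1 probe set of Kcnt1 was above background in every cell. Of all genes 17.7% were above background in any cell, and 3748 of 14218 above the array median in all cells. A class of 5 genes is too small to set against these shares. Kcnn1, a small-conductance (SK) channel, was the highest, at 8.43, 8.79 and 6.77 log2 and percentiles of 78.8, 83.6 and 39.2 in cells 1, 2 and 3. Kcnn3, another SK channel, lay at 27.5, 19.9 and 63.4, so the order of the pair in cells 1 and 2 was turned in cell 3. Kcnma1, the pore of large-conductance (BK) channels, was at 46.9, 20.9 and 13.3. Kcnn4, the intermediate-conductance channel of blood and immune cells, was near the floor at 4.16, 2.99 and 15.8. Kcnt1, placed in this class by its symbol although it is gated mainly by sodium, lay at 35.6, 31.7 and 66.9. Kcnn2, the SK gene that the study discusses for dendrites, was not analysed here.

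The auxiliary subunits spanned nearly the whole array. At their head, Kcnip3 (KChIP3, also calsenilin or DREAM), a calcium sensor that binds Kv4 channels and can act as a transcriptional repressor, read 10.89, 10.83 and 10.50 log2 in cells 1, 2 and 3, at 97.7, 97.6 and 95.4. This value averages a probe set near the top of the scale with a dim one, so its small spread between cells is no measure of steadiness. Of the other KChIP genes, Kcnip2 lay at 86.3, 86.3 and 30.7, Kcnip1 at 72.0, 4.17 and 48.9 and Kcnip4 at 17.5, 60.4 and 14.8. Kcnmb4, the BK beta subunit of neurons, lay at 82.8, 81.3 and 87.2, whereas Kcnmb1, the BK beta subunit of smooth muscle, lay at 22.8, 3.31 and 5.10. The neuronal form was above the array median and the smooth muscle form below it in every cell. Kv beta subunits, which attach to Kv1 channels, were low or middling: Kcnab1 at 17.5, 65.0 and 69.1, Kcnab2 at 30.8, 44.1 and 38.3 and Kcnab3 at 39.9, 12.6 and 68.3. KCNE subunits divided into Kcne3 (53.2, 75.2 and 57.6) and Kcne4 (47.4, 79.6 and 51.0) in the middle, and Kcne2 (4.61, 10.7 and 2.23) and Kcne1 (1.41, 1.06 and 4.44) at the bottom. Kcne1 is the classical partner of Kcnq1 in the heart. Kcnq1 lay in the upper part of every array (94.8, 88.4 and 75.6) and Kcne1 at the bottom.

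The 5 classes were compared by the median percentile of their genes in each cell, in 10 pairs. Voltage-gated genes had medians of 58.4, 54.0 and 61.1 in cells 1, 2 and 3 (57.8 ± 3.58, mean ± SD, n = 3 cells), auxiliary subunits 39.9, 60.4 and 48.9 (49.7 ± 10.3), inward rectifiers 38.8, 47.0 and 52.7 (46.2 ± 6.96), two-pore genes 29.1, 46.0 and 53.9 (43.0 ± 12.6) and calcium-activated genes 35.6, 20.9 and 39.2 (31.9 ± 9.70). Neighbours in this order did not differ beyond the spread between cells. Voltage-gated minus auxiliary genes gave 18.5, -6.40 and 12.1 percentile points, auxiliary subunits and inward rectifiers changed order between cells, and so did two-pore and calcium-activated genes. Voltage-gated genes did stand above inward rectifiers (by 19.6, 6.98 and 8.41 points), two-pore genes (29.3, 8.05 and 7.23) and calcium-activated genes (22.8, 33.1 and 21.8) in every cell. The last of these, 25.9 ± 6.22 points, was the largest against its spread between cells, but rests on 5 genes against 31. The brightness of the probes repeats on every array. The spread between cells therefore does not measure the uncertainty of a difference between classes. When each gene was read by its brightest probe set, the medians were 57.5 for voltage-gated and 41.1 ± 27.6 for calcium-activated genes, a distance smaller than that spread. Inward rectifiers (43.9 ± 10.2) and two-pore genes (40.3 ± 12.8) stayed below by more than their spread. Without genes below the median of the background genes in every cell, they no longer did. The medians were then 50.8 for voltage-gated genes, 44.7 ± 9.72 for inward rectifiers, 43.5 ± 20.7 for two-pore and 30.5 ± 12.5 for calcium-activated genes. Auxiliary and pore-forming genes (62 genes) had no steady order, with differences of -1.72, 11.5 and -5.88 points.

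**Figure D2:**
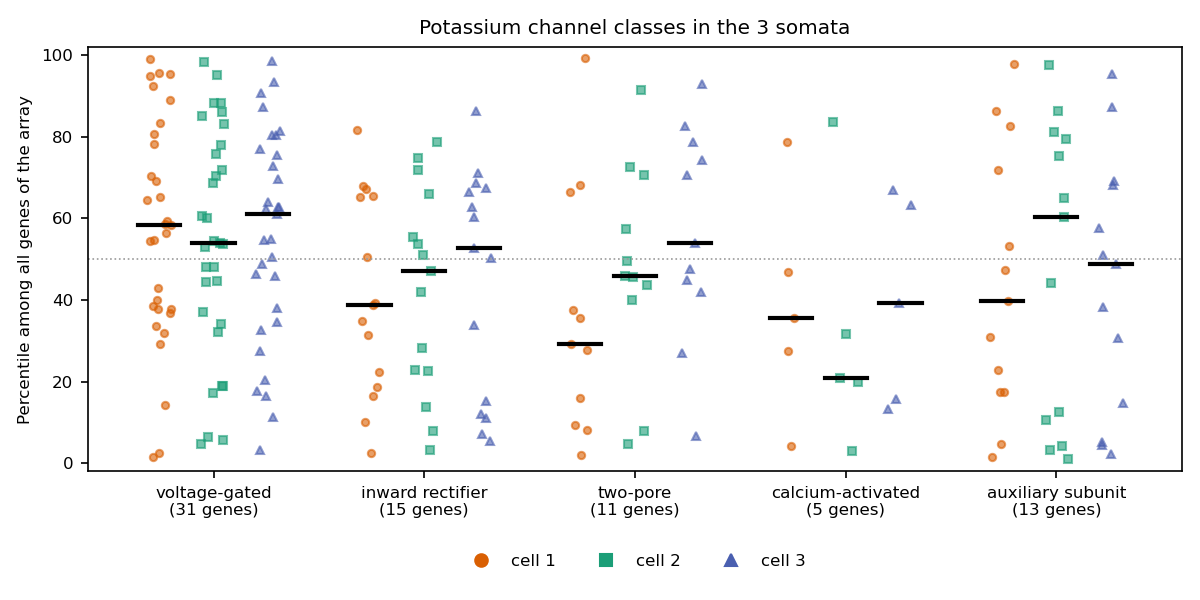
Percentile among all genes of the array (vertical axis) of each potassium channel gene by class, with 1 point per gene in cell 1 (circles), cell 2 (squares) and cell 3 (triangles), a black bar at the class median and dots marking the 50th percentile. Voltage-gated genes have medians between 54.0 and 61.1 and calcium-activated genes between 20.9 and 39.2, while the genes of most classes spread over nearly the whole axis.

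Channel genes known from forebrain pyramidal neurons were set against channel genes known mainly from other tissues. The lists were drawn from general knowledge, but with earlier results of these data known, so their difference is only a description. The 33 pyramidal genes measured had medians of 56.5, 60.2 and 62.8 in cells 1, 2 and 3, and the 17 others 35.6, 46.0 and 47.6, which left 25 genes in neither list. The pyramidal list was higher in every cell, by 21.0, 14.2 and 15.2 points (16.8 ± 3.65, mean ± SD, n = 3 cells). Both lists held exceptions. Kcnq1, on the list of other tissues, was above background in cell 1, and 7 genes of that list lay below the array median in every cell, Kcne1, Kcnn4 and Kcnj10 among them. The pyramidal list held 10 genes of its 33 above the array median in every cell, led by Kcnip3 and Kcnc4. It also held 6 below the array median in every cell, such as Kcnk4. Of all 14218 genes, 3748 lay above the array median in every cell and 3553 below it in every cell. The 10 of 33 genes are near that share, so these counts set out no trait of the pyramidal list. Without genes that were below the median of the background genes in every cell, the difference shrank to 7.98 ± 10.6 points, less than its spread.

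Single cells differed widely in some channels. A gap of more than 50 percentile points between the highest and the lowest cell was found for 15 of the 75 genes (20.0%), where 20.8% of all genes had one. Of these 15, cell 1 was the highest for 6, cell 2 for 3 and cell 3 for 6, and 12 of them rest on 1 probe set. Leaving out cell 1 reduced the count to 3, leaving out cell 2 to 9 and leaving out cell 3 to 7, fewer in part because 2 cells have a smaller range than 3. The largest gaps were those of Kcnk12 (88.3 points), Kcna5 (77.7), Kcnk9 (75.5), Kcnip1 (67.8) and Kcnh7 (64.3). That of Kcnip1 belongs to the median of 3 probe sets that went different ways. After quantile normalisation 1 was 3.15 log2 higher in cell 1 than in cell 2, and another 2.38 higher in cell 2 than in cell 1. Kcnip2, also among the 15, was lowest in cell 3 by its median. Its brightest probe set was highest there, at 10.09, 9.01 and 11.39 log2 in cells 1, 2 and 3. After quantile normalisation Kcnk12 was 4.89 log2 higher in cell 3 than in cell 2, Kcnh7 4.87 higher in cell 1 than in cell 3, Kcnk9 3.77 higher in cell 2 than in cell 1 and Kcna5 3.63 higher in cell 1 than in cell 2. By the value of the gene, Kcna5, Kcnip1 and Kcnh7 were highest in cell 1, Kcnk9 in cell 2 and Kcnk12 in cell 3. The share of genes with a gap over 50 points was near that over all genes. With 1 array per cell, differences between somata and those made by amplifying the RNA of 1 cell cannot be told apart.

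**Figure D3:**
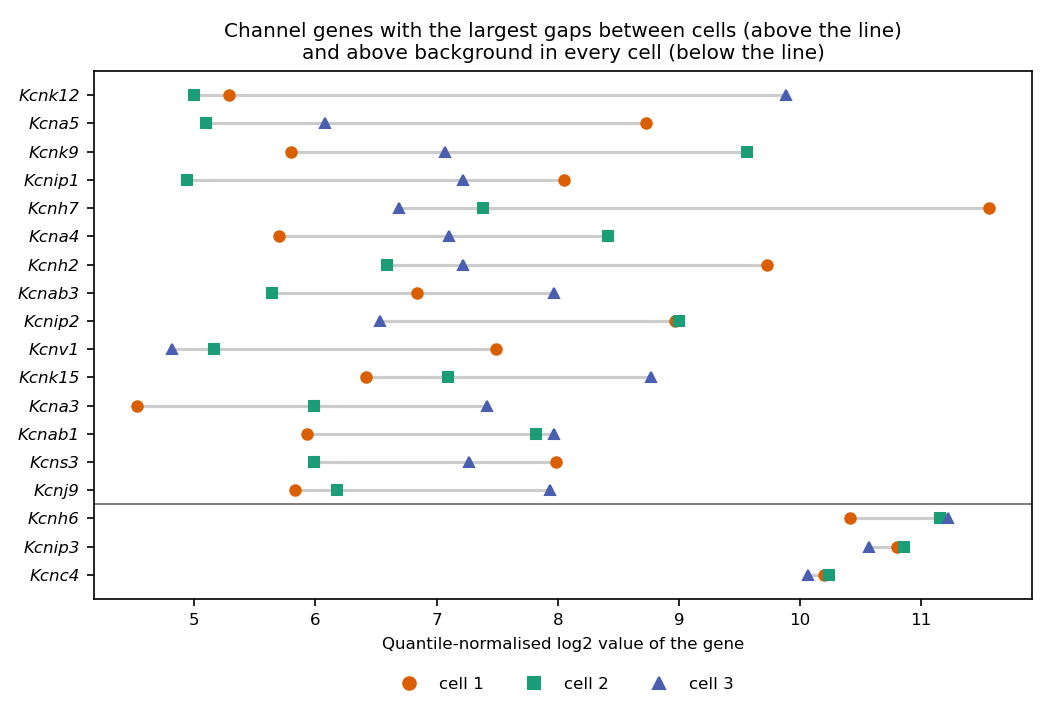
Quantile-normalised log2 value (horizontal axis) of the 15 potassium channel genes with a gap over 50 percentile points between cells, above the line, and of the 3 genes above background in every cell, below it, in cell 1 (circles), cell 2 (squares) and cell 3 (triangles). Kcnk12 is high in cell 3 alone, Kcnk9 in cell 2 and Kcnh7 in cell 1, while the symbols of Kcnc4, the average of 2 probe sets, nearly coincide.

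Across the 75 genes the cells kept part of their order. Pearson's r of the quantile-normalised values was 0.547 and 0.528 for cell 1 with cells 2 and 3 and 0.660 for cells 2 and 3, where the background genes gave 0.419, 0.414 and 0.634. These correlations are across genes, share the brightness of the probes and are given as a description. Inward rectifiers kept their order best in the pairs with cell 1 among the pore-forming classes of more than 5 genes, with r of 0.729, 0.747 and 0.768, and had the smallest median SD between cells (0.36 log2, against 0.65 for all channel genes and 0.77 for all genes). Among the same classes two-pore genes had the lowest r, at 0.272, 0.322 and -0.131, and a median SD of 0.73 log2. Voltage-gated genes agreed between cells 2 and 3 (0.824) and less with cell 1 (0.423 and 0.410). By Spearman correlation of ranks, two-pore genes gave 0.427, 0.4 and -0.127 and voltage-gated genes 0.330, 0.411 and 0.740. In rank order two-pore genes were therefore clearly the lowest only between cells 2 and 3. Auxiliary subunits, which are not pore-forming, gave r of 0.727 and 0.802 for cell 1 with cells 2 and 3 and 0.715 for cells 2 and 3. Such agreement was therefore not particular to inward rectifiers.

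The position of many channel genes depended on which probe set was read. Of the 75 genes 31 had more than 1 probe set, and in 14 of them (45.2%) the median percentiles of the probe sets lay more than 50 points apart, against 28.7% of 4526 genes with several probe sets on the array. The 14 genes were Kcnip1, Kcnab1, Kcnj6, Kcnk2, Kcnt1, Kcnip2, Kcna6, Kcnab2, Kcnj3, Kcnd3, Kcnip3, Kcnj4, Kcnc2 and Kcnq5. Percentiles of single probe sets are ranks among the 20832 probe sets with 1 symbol. For Kcnip3 one probe set read 15.11, 14.99 and 14.99 log2 in cells 1, 2 and 3, near the highest value of any array (15.54), and the other 6.67, 6.68 and 6.00, below the array median. The high place of Kcnip3 is therefore that of 1 of its 2 probe sets. Likewise Kcnc4 had one at 12.93, 12.92 and 13.09 log2 and another near the middle, at 7.47, 7.48 and 7.13. Kcnh6 rests on its only probe set.

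At the level of probe sets, 6 of the 126 (4.76%) were above background in every cell, against 2.75% of all named probe sets. They were the bright ones of Kcnip3 and Kcnc4, that of Kcnh6, and 1 each of Kcnj11, Kcnk2 and Kcnt1. The bright Kcnj11 probe set read 10.72, 11.15 and 11.27 log2 in cells 1, 2 and 3, the bright Kcnk2 one 10.05, 10.07 and 10.99 and the bright Kcnt1 one 10.13, 10.22 and 10.41. Their sister probe sets read low for Kcnk2 (5.83, 3.94 and 5.50) and Kcnt1 (6.29, 5.41 and 5.53 for the lowest), so these steady high values vanish in the median of the gene. Another set of probe sets was high in cells 2 and 3 and much lower in cell 1. Among them were those of Kcnab1 (7.21, 10.43 and 10.83), Kcnj6 (6.88, 10.18 and 10.25), Kcnip1 (8.83, 11.22 and 11.35) and Kcnq5 (9.21, 11.27 and 11.22). Kcnab2, which the study discusses with Kcnab1, had 1 of 4 probe sets high in every cell, at 9.97, 9.25 and 9.93 log2, above background in cells 1 and 3.

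Of the 6 probe sets above background in every cell, 5 were designed from expressed sequence tags (ESTs) and 1, that of Kcnh6, from an mRNA record, judged by the accession behind each probe set. This was 11.9% of the 42 EST-derived and 1.19% of the 84 mRNA-derived channel probe sets, where the shares over all named probe sets were 2.72% and 2.84%. In the 20 channel genes with both kinds, however, the EST-derived probe sets were higher in 11, 11 and 9 genes in cells 1, 2 and 3, in every cell in 5 and lower in every cell in 5. The kind of record therefore gave no common direction within genes. Where the probe sets lie on the transcripts was not tested, and neither was binding of other transcripts.

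**Figure D4:**
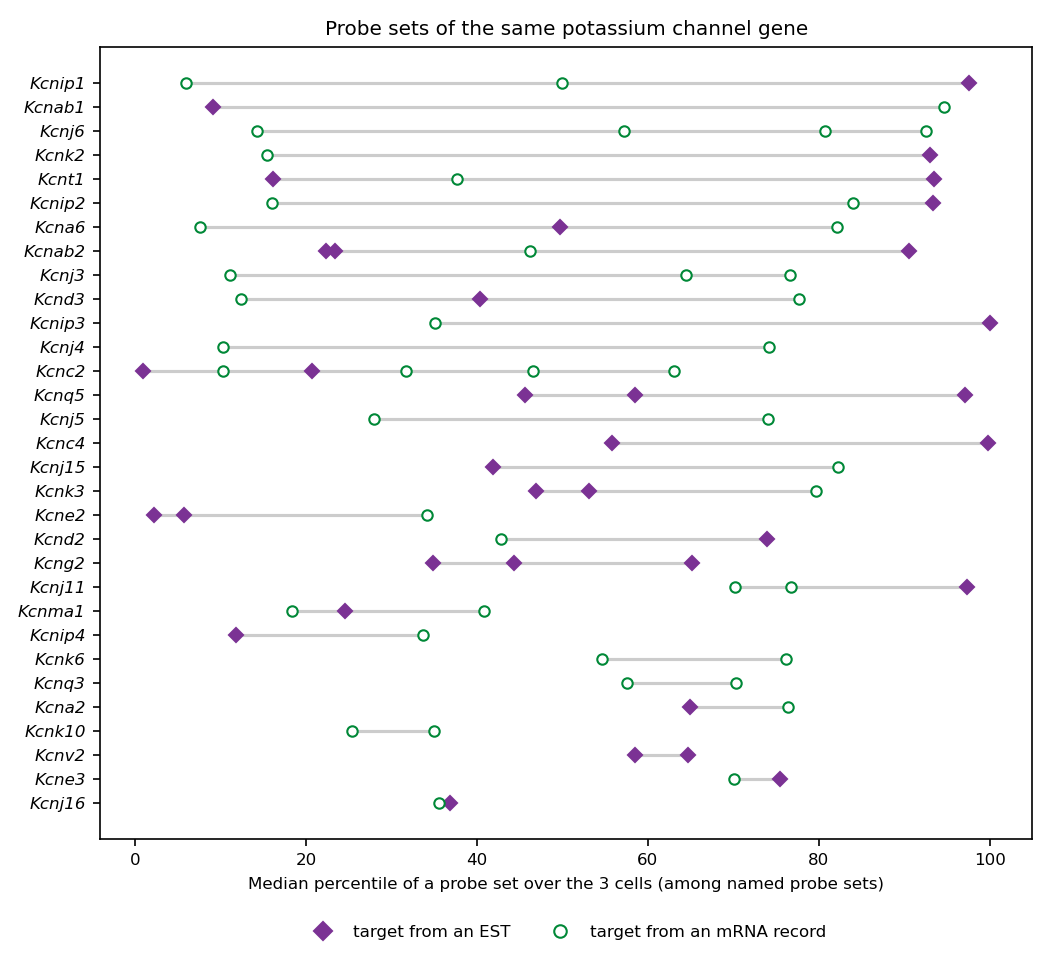
Median percentile over the 3 cells (horizontal axis, rank among probe sets with 1 symbol) of each probe set of the 31 potassium channel genes with several, with filled diamonds for targets from ESTs, open circles for targets from mRNA records and a grey line joining the probe sets of a gene. Kcnip1, at the top, has probe sets from 6.00 to 97.6, and the first 14 genes have a span of more than 50 points.

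Genes that work with these channels were read alongside. Sodium pump beta subunits, parts of the pump that restores the potassium gradient, were high: Atp1b1 lay at 94.2, 97.5 and 99.1 in cells 1, 2 and 3, Atp1b3 at 91.7, 98.2 and 91.5 and Atp1b2 at 71.7, 78.9 and 85.5. Calm2, one of the genes for calmodulin, the calcium sensor of SK and Kv7 channels, was above background in every cell (95.3, 93.4 and 97.7). Dlg4 (PSD-95), which can cluster Kv1 channels, lay at 89.5, 98.8 and 97.3, although the 10 anchoring genes of Kv1 and Kv7 had medians of 41.9, 27.3 and 45.1. Accessory proteins of Kv4 and Kv2 channels had medians of 52.7, 58.8 and 53.2 over 6 genes, and Dpp6, a Kv4 partner in dendrites, lay at 13.1, 17.7 and 52.2. The sulphonylurea receptors that complete the ATP-sensitive channel lay below its pore Kcnj11 in every cell, Abcc8 at 57.3, 31.3 and 33.4 and Abcc9 at 39.9, 57.4 and 23.2. Of the partners named here, Atp1b1 and Calm2 were above background in all 3 cells.

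Channel genes that lie within 200 kb of each other on the rat assembly were close on the arrays in some pairs and far apart in others. Of the 9 such pairs, Kcne1 and Kcne2 stayed close in every cell, 3.20, 9.65 and 2.21 points apart in cells 1, 2 and 3, both near the floor. Kcna1 and Kcna5 of one cluster of Kv1 genes were 14.4, 62.8 and 61.1 points apart, and Kcna2 and Kcna3 of the other 57.7, 69.4 and 25.7. Kcna1 and Kcna6 were 32.3, 31.4 and 20.3 points apart, Kcnj16 and Kcnj2 20.0, 28.1 and 18.6, and Kcnj10 and Kcnj9 14.1, 14.7 and 60.3. Distances between unlinked channel genes were not computed, so these values are a description.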

How the data were processed

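RNA of 3 single somata was amplified in several rounds, labelled with biotin and read on Affymetrix Rat 230 2.0 arrays. The authors deposited 1 log2 value per probe set, and the labels name RMA 2.0. The study's methods describe dendrites and not these somata separately. Their steps for arrays are an upper-decile summary of probes, centring on the median and scaling by the 10th to 90th percentile range. Neither of the last steps was visible in the deposited log2 values, which had medians of 7.23, 7.16 and 7.09. The sources used here give no genome build, and no scanner files or detection calls were used.

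Symbols came from the platform annotation: 20832 probe sets had 1 symbol, 436 had several, and 57 were control probe sets. Ranks, medians and quantile normalisation (of probe sets other than controls) were computed with Python 3.11.15, pandas 2.3.3 and numpy 2.4.6, tested on simulated data. Background came from 29 receptor and 123 organ genes. Cells were compared by value, mean and SD, without a test.

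The members, gene lists and background genes were chosen with earlier results of these data known. Genes were named by rule: the top 5% of any cell or above background in all 3, the 2 highest and 2 lowest per class, the 5 largest gaps, probe sets over 50 points apart, Kcnn2, Kcnab1 and Kcnab2, and members of the subgroups described. Genes outside it (partners, markers, neighbours) were named after their values were seen. Alternatives were the brightest probe set, leaving out ambiguous probe sets, probe sets in place of genes, means, the 90th percentile or receptors alone as background, centred and scaled values, leaving out dim genes, and leaving out each cell.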

Additional observations from a re-analysis of the deposited data

How the results depend on the processing

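No paired analysis was possible because all 3 arrays belong to 1 group. Background correction and a detection filter could not be run without scanner files. Across the alternatives, 66 recomputed summary values stayed within the spread between cells, or within 1.5 times a count, 10 moved further and 3 turned direction. All 14 recomputed log2 differences of single probe sets between cells kept theirs under deposited and scaled values. These probe sets belong to the 5 genes with the largest gaps, so a change of direction was unlikely from the outset. With the brightest probe set per gene, 5 channel genes in place of 3 were above background in every cell, and the pyramidal list exceeded the list of other tissues by 33.5 points in place of 16.8. With probe sets in place of genes, 6 were above background in every cell, that difference was 10.03, the auxiliary median was 36.1, and auxiliary minus pore-forming was -15.4 in place of 1.29. Means in place of medians made the last -4.12, and leaving out each cell in turn made it range from -3.80 to 4.87, with the sign turned without cell 2. Without dim genes, the voltage-gated median was 50.8 and the pyramidal difference 7.98. Leaving out each cell gave from 3 to 9 genes with a gap over 50 points in place of 15, fewer in part because the range over 2 cells is smaller. Other causes were not tested. The order of auxiliary and pore-forming genes is therefore not settled, and background limits what can be said of the 67 genes whose median over probe sets never passed it, some of which have a single probe set that did.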
